A study of Mus musculus with 9 samples.

Results

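The genes described here are the secreted WNT proteins, their receptors at the cell surface and the secreted proteins that raise or lower WNT signalling, measured in mouse lung after long exposure to tobacco products. They were taken by symbol: every gene on the array whose symbol begins with Wnt, Fzd, Rspo, Sfrp or Dkk and then a digit, together with Lgr4, Lgr5, Lgr6, Lrp5, Lrp6, Axin2, Wif1 and Notum. This gave 50 of the 22911 symbols on the array, carried by 63 probes. They are 19 WNT ligands, 10 Frizzled receptors, 5 LRP or LGR receptors, 4 R-spondins and 8 genes of the SFRP and DKK families. The others are the inhibitors Wif1 and Notum, the feedback gene Axin2, and Fzd10os. Fzd10os is an RNA from the strand opposite to Fzd10 that entered by its name and is no receptor.

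WNT proteins are lipid-modified signals that act over short distances. They bind a Frizzled receptor together with LRP5 or LRP6, which stops the breakdown of beta-catenin and lets it switch on targets such as Axin2, or they act without beta-catenin on cell shape and polarity. R-spondins bind LGR receptors and keep Frizzled proteins at the surface, while WIF1, NOTUM and many SFRP and DKK proteins hold the signal down. In the lung, WNT proteins from fibroblasts are known to maintain part of the alveolar type II cells and to act in airway and alveolar repair.

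The animals were male C57BL/6J mice, 12 weeks old when exposure began, and total RNA of the whole lung was labelled with Cy3 for 1-colour Agilent arrays. The air group breathed fresh air, the CS group 3.5% cigarette smoke and the IQOS group a 3.5% aerosol of IQOS, a device that heats tobacco without burning it, all for 6 months. Each group had 3 arrays. No genetic change was made in any group, as far as the labels say, and nothing in them ties an array to an animal of its own. The p-values therefore cover only the spread among these samples, and that spread may be technical. In whole lung, fewer cells of a type and less RNA per cell cannot be told apart.

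Values are signals relative to the 75th percentile of the same array, and changes are differences of log2 means with their standard errors (SE). A gene was called when the limma adjusted p was under 0.05. The air and CS arrays shared 1 slide and the IQOS arrays filled another, so IQOS exposure and slide cannot be told apart. Array row differed too: row 2 held CS 1 to 3 with air 3, and row 1 held IQOS 1 to 3 with the other air arrays. Between 64.3% and 68.8% of probes were well above background on an array. Sftpc, Scgb1a1, Ager and Pecam1, which mark alveolar type II, club, alveolar type I and endothelial cells, were above background on all 9 arrays.

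Of the 50 genes, 36 passed the filter on dim probes and were tested. Of the tested genes, 33 were above background on all 9 arrays, Lgr5 on 8, Wnt6 on 7 and Wnt10a on 5. The untested genes Dkk1, Dkk4, Fzd10, Lgr6, Rspo2, Wnt16, Wnt2b, Wnt3 and Wnt8b were not above background on any array. Rspo4 was above background on 3 arrays, Fzd9 on 2, and Dkk2, Wnt8a and Wnt9b on 1 each.

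The bases just before the start of the Wnt1, Wnt3a, Rspo1 and Lgr4 genes are shown because these 4 genes were called in the comparisons that follow and have an entry in the RefSeq promoter table. Each line is the 250 bases before the start, 5′ to 3′ on the strand of the gene, in the build GRCm38.p6. Capitals mark GCGTG, the core of the site bound by the aryl hydrocarbon receptor, a sensor of smoke chemicals, or CACGC, its complement on the other strand. The positions are chr15:98789607-98789856 (plus strand) for Wnt1, chr11:59290752-59291001 (minus strand) for Wnt3a, chr4:124986180-124986429 (plus strand) for Rspo1 and chr2:109917397-109917646 (plus strand) for Lgr4.
Wnt1: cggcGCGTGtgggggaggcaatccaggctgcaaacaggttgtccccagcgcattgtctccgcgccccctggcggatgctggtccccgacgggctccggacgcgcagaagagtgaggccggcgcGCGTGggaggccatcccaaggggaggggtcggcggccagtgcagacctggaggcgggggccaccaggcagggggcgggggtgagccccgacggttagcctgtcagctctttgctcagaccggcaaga
Wnt3a: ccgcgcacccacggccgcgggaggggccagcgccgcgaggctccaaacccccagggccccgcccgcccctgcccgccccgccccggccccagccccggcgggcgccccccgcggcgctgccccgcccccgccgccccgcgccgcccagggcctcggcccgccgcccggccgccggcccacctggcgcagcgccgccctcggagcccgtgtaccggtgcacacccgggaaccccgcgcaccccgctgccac
Rspo1: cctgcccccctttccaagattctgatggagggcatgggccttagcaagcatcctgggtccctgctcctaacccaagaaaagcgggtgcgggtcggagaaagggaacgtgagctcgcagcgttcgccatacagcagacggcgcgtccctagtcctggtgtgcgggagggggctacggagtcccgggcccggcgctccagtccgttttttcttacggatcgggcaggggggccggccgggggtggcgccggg
Lgr4: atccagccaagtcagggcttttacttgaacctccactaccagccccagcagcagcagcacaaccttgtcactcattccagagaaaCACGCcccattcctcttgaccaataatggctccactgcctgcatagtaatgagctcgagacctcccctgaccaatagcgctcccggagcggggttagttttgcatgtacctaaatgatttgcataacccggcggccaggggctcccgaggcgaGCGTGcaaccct
The Wnt1 window held GCGTG at 246 and 127 bases before the start, and the Lgr4 window held it at 12 bases on the gene's strand and at 165 bases on the other strand. The Wnt3a and Rspo1 windows held none. The table had windows for 31 of the 50 genes. GCGTG, searched on both strands, was in 18 of the 34 windows of these 31 genes (17 genes), beside 28.2% of all 32851 windows. The sites of the beta-catenin partners TCF and LEF were searched as CTTTGAA and CTTTGAT on both strands. They were in 3 of the 34 windows (genes Dkk1, Wnt11 and Wnt5b), beside 7.48% of all windows. A match describes letters only.

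In CS lungs Rspo3, an R-spondin, fell 2.24-fold, and 7 other genes were called, all of them lower except Wnt1. In IQOS lungs Notum, a secreted inhibitor, rose 1.59-fold and no other gene was called against air. For CS against air, 1 of the 36 tested genes was higher and 7 were lower, beside 5.59% and 6.12% of all 16590 tested genes. Another 28 were not called. The median change was -0.26 on the log2 scale, against -0.02 for all tested genes. Of the 36 changes, 27 were below 0, beside 8795 of all 16590. The groups did not overlap in 14 genes that were lower in CS and 1 that was higher, beside 21% and 17.2% of all genes. The 8 calls became 1 without air 1 or air 3, 2 without any of the CS arrays and 5 without IQOS 2 or IQOS 3. With array row as a covariate, limma called 0 of the 36 genes for CS against air, while 11 had an unadjusted p under 0.05. The shares of all genes called in that fit, or with an array left out, were not taken. These counts therefore do not set the WNT genes apart from other genes. The row term rests on air 3 against the other air arrays. At an adjusted p under 0.1 in the fit without that term, 1 gene was higher and 11 were lower, beside 9.57% and 11.5% of all genes. Wnt10a, whose probe passed the filter on dim probes only through the air group, is among these 11 and among the 14 not overlapping.

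**Figure D1:**
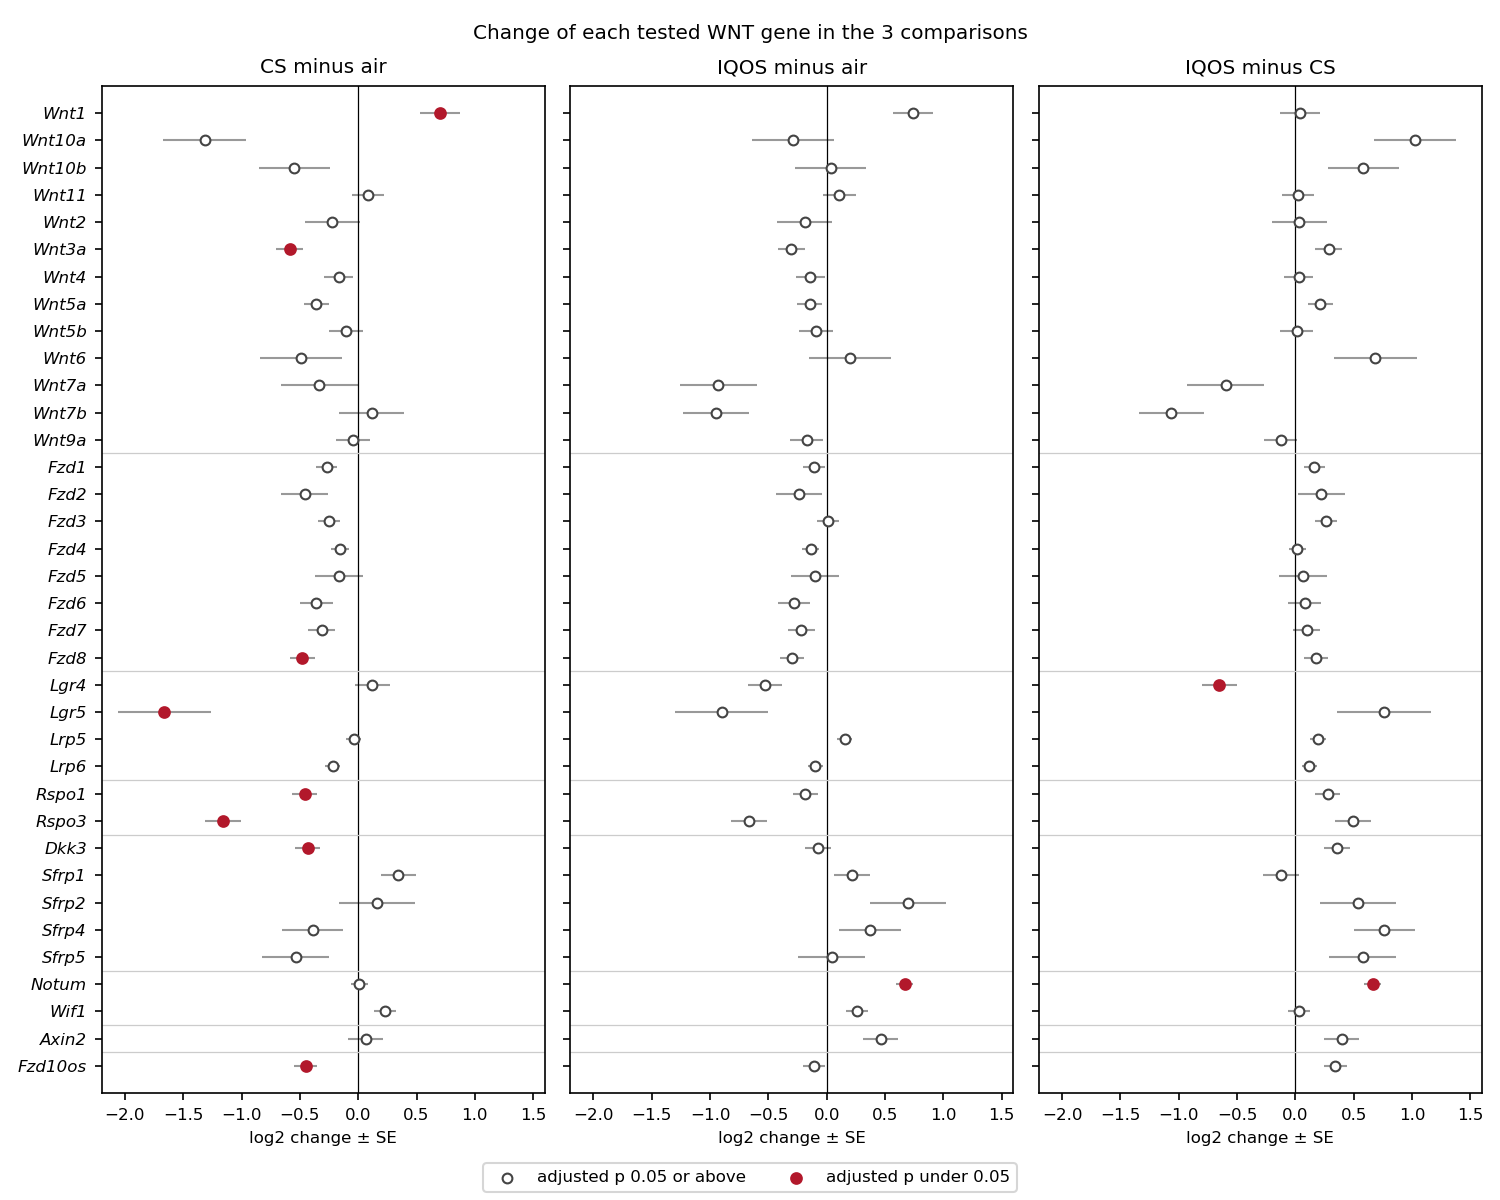
Log2 change ± SE of each of the 36 tested genes for CS against air, IQOS against air and IQOS against CS, 3 arrays per group, with lines between the roles. Filled points have an adjusted p under 0.05: 8 genes for CS against air, 1 for IQOS against air and 2 for IQOS against CS.

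Among the WNT ligands, 13 of 19 were tested and 2 were called for CS against air, Wnt1 higher and Wnt3a lower, with a median change of -0.22. WNT1, an activator of beta-catenin best known from brain development and breast tumours, gave relative signals of 2.77, 2.63 and 2.68 on the air arrays, 4.37, 4.71 and 4.04 on the CS arrays and 3.29, 5.40 and 5.07 on the IQOS arrays. Every CS and IQOS array lay above every air array. The change was 0.70 ± 0.17 for CS against air (limma adjusted p = 0.0428) and 0.74 ± 0.17 for IQOS against air (0.0595), both measured against the same air arrays. The CS call was lost when any air or CS array or IQOS 3 was left out, with adjusted p up to 0.126.

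WNT3A, another activator of beta-catenin, gave 1.16, 0.923 and 0.986 in air, 0.644, 0.632 and 0.761 in CS and 0.867, 0.863 and 0.748 in IQOS. All CS and IQOS arrays lay below all air arrays. The change was -0.59 ± 0.11 for CS (limma adjusted p = 0.0216) and -0.30 ± 0.11 for IQOS (0.173). The CS call was lost without air 1, air 3, CS 1 or CS 2, with adjusted p up to 0.0756.

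WNT5A, which acts mostly without beta-catenin and is made by lung fibroblasts, gave 0.857, 0.696 and 0.891 in air, 0.638, 0.686 and 0.573 in CS and 0.707, 0.739 and 0.751 in IQOS. The CS arrays lay below the air arrays, by -0.36 ± 0.11 (limma adjusted p = 0.0688), which did not pass the threshold. The IQOS arrays lay within the range of the air arrays.

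WNT7B, made by the lung epithelium, gave 0.829, 0.753 and 1.16 in air, 0.737, 0.982 and 1.27 in CS and 0.331, 0.508 and 0.600 in IQOS. The IQOS arrays were below all others, yet the change was not called: -0.95 ± 0.28 against air (limma adjusted p = 0.104) and -1.06 ± 0.28 against CS (0.0526). A dimmer probe for Wnt7b differed by -0.82 ± 0.20 for IQOS against CS, with an adjusted p of 0.0446.

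Wnt10a was not above background on any CS array and was at least 1.44-fold lower there than in air. Its probe passed the filter on dim probes only through the air group, the group where it is high, so no test of this difference is given. Wnt7a had a change of -0.93 for IQOS against air (0.157). Changes for CS against air were -0.55 for Wnt10b, -0.49 for Wnt6, -0.22 for Wnt2 and -0.17 for Wnt4, none of them called. Wnt5b, Wnt9a and Wnt11 had changes between -0.17 and 0.11 against air in both exposures. A dimmer Wnt11 probe gave 0.38 for IQOS against air (limma adjusted p = 0.227), with every IQOS array above every air array.

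**Figure D2:**
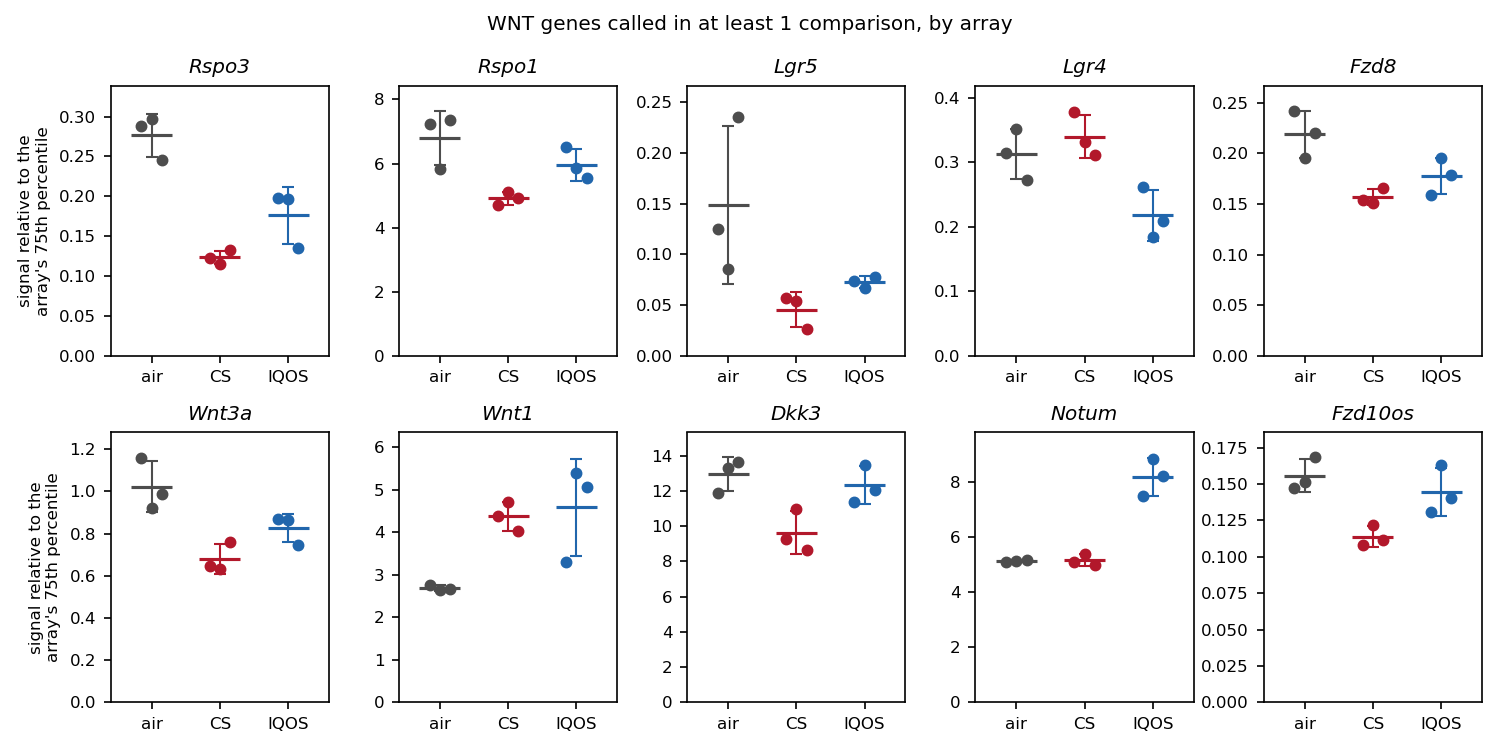
Signal relative to the array's 75th percentile (linear axes from 0) for the 10 genes called in at least 1 comparison; points are arrays and bars are means ± SD (n = 3). Rspo3 is lowest on the CS arrays, and Notum lies at 7.48 to 8.85 on the IQOS arrays against 4.99 to 5.40 on the air and CS arrays.

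All 8 tested Frizzled receptors had changes below 0 for CS against air, with a median of -0.29, but only Fzd8 was called. Of all 16590 tested genes, 8795 had changes below 0. For IQOS against air, 7 of the 8 receptors were below 0, with a median of -0.18, beside 8736 of all 16590. The FZD8 receptor gave 0.241, 0.195 and 0.220 in air, 0.153, 0.151 and 0.166 in CS and 0.159, 0.195 and 0.179 in IQOS. No CS array reached the lowest air array, and the change was -0.48 ± 0.10 (limma adjusted p = 0.0298). For IQOS it was -0.30 ± 0.10 (0.146). The CS call was lost without air 1, air 3 or any CS array, with adjusted p up to 0.101.

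FZD3, a receptor known from planar polarity and axon guidance, gave 0.252, 0.286 and 0.236 in air, 0.229, 0.208 and 0.212 in CS and 0.236, 0.278 and 0.265 in IQOS. Its CS arrays were below all others, with a change of -0.25 ± 0.09 (limma adjusted p = 0.127). Fzd1 was lower on all CS arrays, by -0.27 (0.0948), as were Fzd4 and Fzd7 with -0.16 and -0.31. The CS and air arrays overlapped for Fzd2 (-0.46), Fzd5 (-0.17) and Fzd6 (-0.36). For Fzd10os the signals were 0.147, 0.151 and 0.169 in air, 0.108, 0.122 and 0.112 in CS and 0.131, 0.163 and 0.140 in IQOS. It fell by 0.45 ± 0.10 in CS (limma adjusted p = 0.0304). That call was lost when any air or CS array was left out, with adjusted p up to 0.0820, and the change was -0.24 after normexp background correction.

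Of the co-receptors LRP5 and LRP6, neither was called. Lrp6 lay lower on every CS array than on any air array, with a change of -0.22 (limma adjusted p = 0.0682), and its dimmer probe gave -0.16. Lrp5 differed by -0.04 in CS and 0.15 in IQOS.

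Both tested R-spondins were called lower for CS against air, and Rspo3 was the one gene of the 36 whose call in that comparison outlasted the loss of any array. RSPO3, an R-spondin that vessel and stromal cells are known to make, had signals of 0.288, 0.296 and 0.246 in air, 0.123, 0.115 and 0.132 in CS and 0.198, 0.196 and 0.135 in IQOS. The groups were ordered air, IQOS, CS with no overlap. The fall in CS was -1.16 ± 0.15, or 2.24-fold (limma adjusted p = 0.00746). It held with each array left out in turn, where adjusted p reached at most 0.0404, but with array row as a covariate it rose to 0.098. IQOS differed from air by -0.67 ± 0.15 (0.0572) and from CS by 0.50 ± 0.15 (0.0812).

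RSPO1, which acts through the same receptors, gave 7.23, 5.82 and 7.34 in air, 4.72, 5.11 and 4.92 in CS and 6.50, 5.85 and 5.54 in IQOS. All CS arrays were below all other arrays, and IQOS overlapped air. The change was -0.46 ± 0.10 for CS (limma adjusted p = 0.0345) and -0.18 for IQOS (0.345). The CS call was lost without air 1, air 3, any CS array or IQOS 2, with adjusted p up to 0.119.

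The R-spondin receptors differed from each other. LGR5, known as a mark of stem cells in several epithelia and of some lung stromal cells, gave dim signals of 0.125, 0.0861 and 0.236 in air, 0.0571, 0.0537 and 0.0261 in CS and 0.0742, 0.0668 and 0.0782 in IQOS. Air 3 was the highest array and CS 3 the lowest, and only 2 of the 3 CS arrays were above background. The change was -1.66 ± 0.40 for CS (limma adjusted p = 0.0403) and -0.90 ± 0.40 for IQOS (0.239). The CS call was lost when any array other than air 2 was left out, with adjusted p up to 0.109, and the change shrank to -0.77 after normexp background correction.

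LGR4, the more widely expressed receptor, gave 0.314, 0.352 and 0.273 in air, 0.377, 0.331 and 0.311 in CS and 0.262, 0.185 and 0.208 in IQOS. The IQOS arrays lay below all others. It was called lower for IQOS against CS, by -0.65 ± 0.15 (limma adjusted p = 0.0342), while the change was -0.53 against air (0.0916). Its dimmer probe gave -0.28 for IQOS against CS (0.58). Against air the dimmer probe gave 0.11 for IQOS (limma adjusted p = 0.855) with overlapping groups, so the probes differed in sign there. The call was lost without air 1, any CS array, IQOS 2 or IQOS 3, with adjusted p up to 0.0938.

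**Figure D3:**
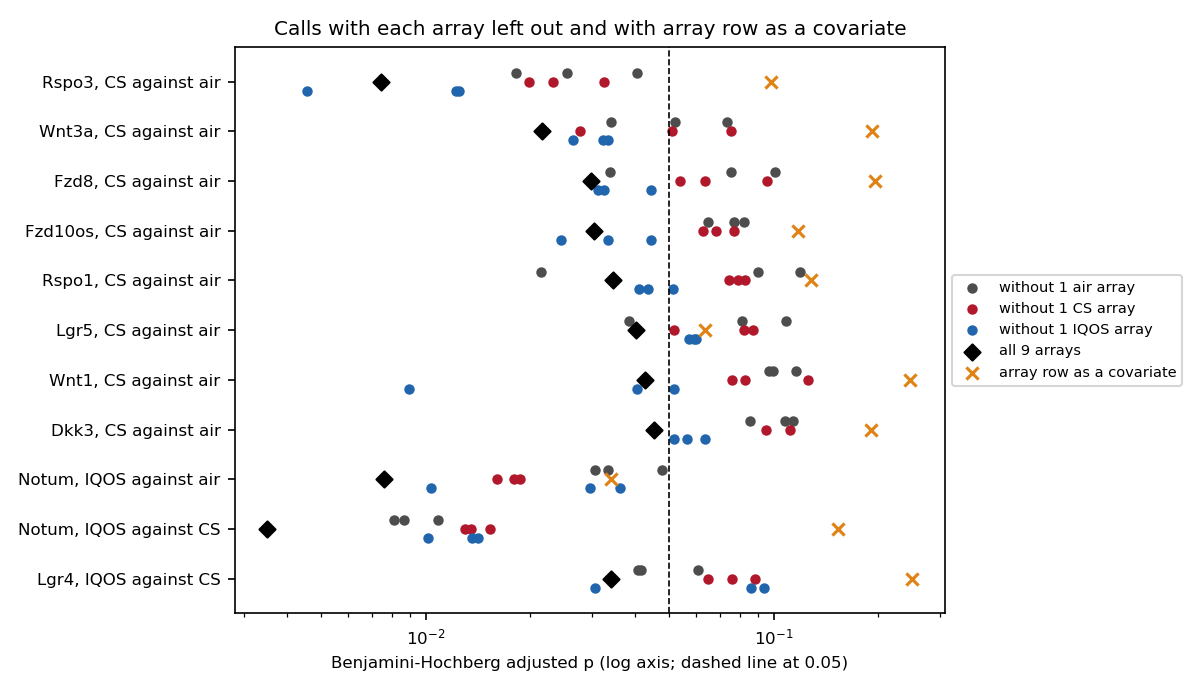
Adjusted p (log axis, dashed line at 0.05) of each called change with all 9 arrays, with each array left out in turn and with array row as a covariate. Only Rspo3 for CS against air and Notum in both IQOS comparisons stay left of the line with every array left out.

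Of the SFRP, DKK, WIF1 and NOTUM genes, Notum was called in IQOS and Dkk3 in CS. NOTUM, an enzyme that takes the lipid off WNT proteins, gave 5.10, 5.13 and 5.18 in air, 5.10, 5.40 and 4.99 in CS and 7.48, 8.85 and 8.23 in IQOS. Air and CS overlapped and every IQOS array was higher than all of them. For IQOS against air, 1 of the 36 tested genes was higher and 0 were lower, beside 1.99% and 0.886% of all tested genes. Before adjustment, 11 of the 36 had p under 0.05 (limma), beside 3370 of all 16590 tested genes. At an adjusted p under 0.1, 2 were higher and 2 lower, beside 4.21% and 3.24%. The change of Notum was 0.67 ± 0.07 (limma adjusted p = 0.00762), or 1.59-fold. Against CS it was 0.66 ± 0.07 (0.00351), and CS against air gave 0.01 ± 0.07 (0.962).

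These calls held with each array left out in turn, and with array row as a covariate the change against air kept an adjusted p of 0.0342 in limma while that against CS did not (0.153). A dimmer Notum probe, with signals from 0.0762 to 0.108 on all arrays, gave 0.03 ± 0.11 for IQOS against air (0.895) and 0.30 ± 0.11 against CS (0.111), so the 2 probes of the gene disagreed. The mean of both probes gave 0.35 for IQOS against air (0.0387). All IQOS arrays were on the second slide.

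For IQOS against CS, 1 tested gene was higher (Notum) and 1 lower (Lgr4), beside 4.94% and 5.17% of all tested genes. At an adjusted p under 0.1, 4 were higher and 2 lower, beside 9.52% and 8.84%. The median change was 0.18 for the 36 genes and 0.02 for all genes, and 31 changes were above 0, beside 8829 of all 16590. The groups did not overlap in 13 genes higher in IQOS and 2 lower, beside 18.5% and 16.8% of all genes. For IQOS against air these numbers were 6 higher and 7 lower, beside 13% and 15.1%, with a median of -0.11 for the 36 genes and -0.01 for all genes. There 23 of the 36 changes were below 0, beside 8736 of all 16590. CS against air and IQOS against CS share the CS arrays, so their opposite directions are not independent. The IQOS and CS arrays also differed throughout in slide and array row.

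DKK3, the divergent member of the Dickkopf family, gave 11.9, 13.3 and 13.7 in air, 9.26, 11.0 and 8.64 in CS and 11.4, 13.5 and 12.1 in IQOS. All CS arrays were below all air and IQOS arrays. The change was -0.43 ± 0.11 for CS (limma adjusted p = 0.0453) and -0.07 for IQOS (0.731). Its dimmer probe gave -0.38 for CS (0.105). The call was lost when any array other than CS 2 was left out, with adjusted p up to 0.114.

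SFRP1, a secreted decoy that binds WNT proteins, gave 0.254, 0.258 and 0.333 in air, 0.314, 0.326 and 0.436 in CS and 0.309, 0.315 and 0.354 in IQOS. The groups overlapped, with changes of 0.34 ± 0.15 for CS (limma adjusted p = 0.181) and 0.22 for IQOS (0.439). SFRP2 gave 0.512, 0.381 and 0.841 in air, 0.523, 0.937 and 0.469 in CS and 0.862, 0.938 and 0.865 in IQOS. The IQOS arrays were higher than all air arrays and close together, with a change of 0.70 ± 0.33 (0.26). Sfrp4 and Sfrp5 had changes of -0.39 and -0.54 for CS and 0.37 and 0.04 for IQOS, none called.

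WIF1, which binds WNT proteins outside the cell, gave 0.617, 0.693 and 0.677 in air, 0.834, 0.807 and 0.690 in CS and 0.727, 0.832 and 0.823 in IQOS. The IQOS arrays lay above all air arrays and CS 3 lay within their range. The changes were 0.23 ± 0.09 for CS (limma adjusted p = 0.16) and 0.26 ± 0.09 for IQOS (0.165).

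AXIN2, a brake on beta-catenin that the pathway itself switches on, was taken as a readout of the pathway. It gave 0.703, 0.826 and 0.561 in air, 0.693, 0.730 and 0.738 in CS and 0.849, 1.12 and 0.898 in IQOS. CS lay within the range of air and all IQOS arrays lay above both. The change was 0.07 ± 0.15 for CS (limma adjusted p = 0.814, with a 95% interval from -0.28 to 0.41) and 0.46 ± 0.15 for IQOS (0.134). A dimmer probe gave 0.15 and -0.12.

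The rest of the pathway was read from lists of genes that are not among the 50. Calls in each list stand beside shares of all tested genes of 5.59% higher and 6.12% lower for CS against air. These shares were 1.99% and 0.886% for IQOS against air, and 4.94% and 5.17% for IQOS against CS. Of 31 genes that act in the cytoplasm and nucleus, 1 was called lower for CS against air (Apc2, -0.29) and none higher, with a median of -0.02. Before adjustment, 5 of the 31 had p under 0.05 (limma), beside 5182 of all 16590 tested genes. The call of Apc2 was lost without air 1, air 2, CS 2 or CS 3. Beta-catenin itself, Ctnnb1, differed by 0.10 (limma adjusted p = 0.422). For IQOS against air 0 of these 31 were called by limma, and 5 had p under 0.05 before adjustment, beside 3370 of all 16590. For IQOS against CS Bcl9l, a coactivator of beta-catenin, was called higher by 0.43, and the call was lost when any array was left out.

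Of 14 tested targets of the pathway, Cd44 was called higher and Ccn4 and Tnfrsf19 lower for CS against air. The shares of all tested genes were 5.59% and 6.12%. CCN4, a secreted matrix protein also named WISP1, gave 0.755, 0.802 and 0.814 in air, 0.358, 0.398 and 0.383 in CS and 0.453, 0.369 and 0.534 in IQOS. Every CS and IQOS array lay below every air array. The change was -1.06 ± 0.12 for CS (limma adjusted p = 0.00552), kept with each array left out. It was -0.82 ± 0.12 for IQOS (0.0187), a call lost without any air array or IQOS 1.

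Tnfrsf19, a receptor of the TNF family, changed by -0.64 ± 0.12 in CS, and the call was lost without air 1 or CS 2 and with the mean of its probes (-0.28). The adhesion receptor Cd44 changed by 0.50 for CS against air, lost without air 1, air 2, CS 2, CS 3 or IQOS 3, and by -0.46 for IQOS against CS. That was lost without air 1 or any CS or IQOS array. Nkd2, a feedback inhibitor, was higher in IQOS by 0.35 ± 0.07 against air and 0.36 against CS. The first call was lost with any array left out, and the second without CS 3, IQOS 1 or IQOS 2. Myc, the growth regulator, gave 1.09, 0.960 and 1.02 in CS and 0.410, 0.491 and 0.485 in IQOS, a change of -1.15 ± 0.19 (limma adjusted p = 0.0129) that was kept with each array left out.

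Of 13 planar polarity genes, the cadherins Celsr2 (0.54) and Celsr3 (2.39 ± 0.54) were called higher and Invs (-0.38) and Vangl2 (-0.43) lower for CS against air. Beside these stand 5.59% and 6.12% of all tested genes. Celsr3 gave 0.0871, 0.0648 and 0.107 in air, 0.263, 0.429 and 0.773 in CS and 0.247, 0.0771 and 0.254 in IQOS. The CS arrays lay above all the others but spread widely, and the call was lost without any air array, CS 2 or CS 3. Celsr2 and Invs lost theirs without air 1 or CS 2, and Vangl2 without any array but air 2 or CS 1. Celsr2 was also higher for IQOS against air (0.50), lost without any array but air 2, CS 1 or CS 3. Celsr1 was lower for IQOS against CS (-0.45), lost without air 1 or any CS or IQOS array.

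Among 7 tested secreted factors outside the families above, Ccn4 was the gene called against air. For IQOS against CS, the IGF-binding protein Igfbp4 was higher by 0.47 and Dkkl1, a relative of the DKK genes, fell by 0.55 ± 0.12. The first call was lost without CS 2, and the second without any array but air 2 or IQOS 2. Of 11 receptor partners, limma called 0 in any comparison, with 6, 2 and 2 at an unadjusted p under 0.05 for CS against air, IQOS against air and IQOS against CS. Over all 16590 tested genes these numbers were 5182, 3370 and 4857. Porcn and Wls, which make and export WNT proteins, were not called either, with 0 under 0.05 before adjustment in each comparison (limma). Each call of a gene in these lists was lost with array row as a covariate.

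**Figure D4:**
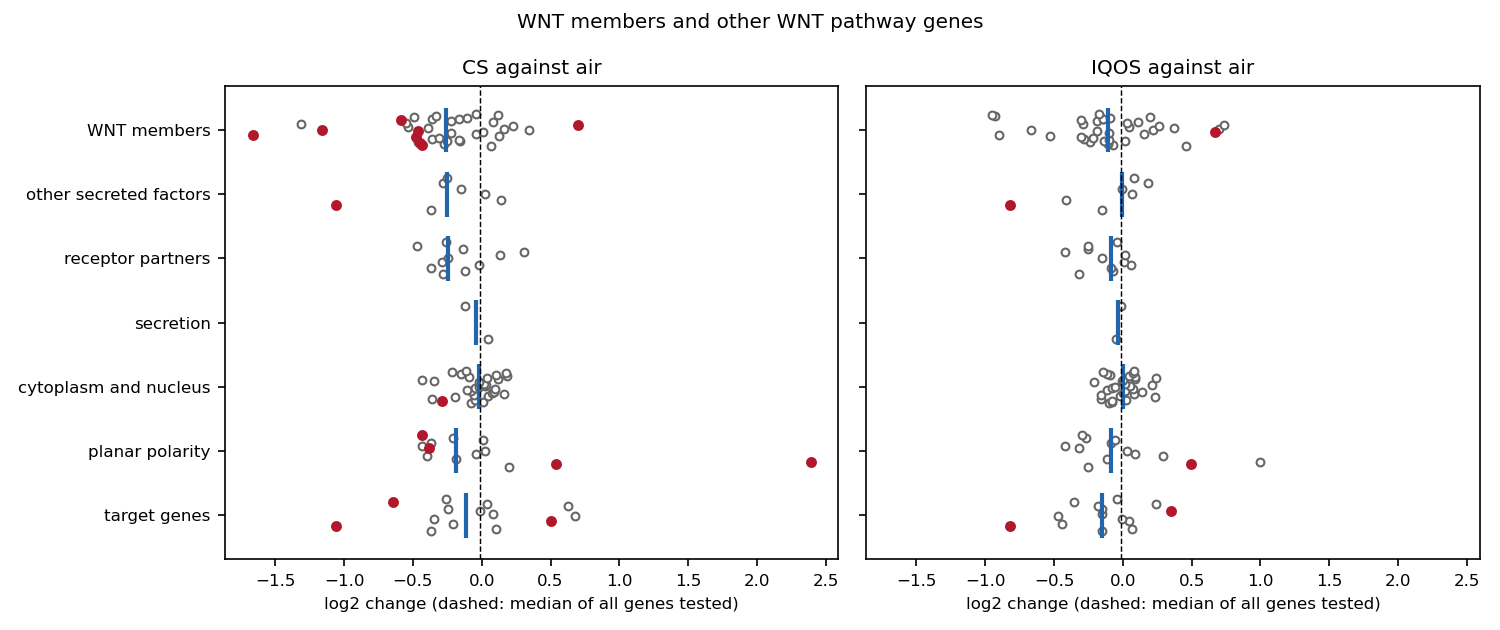
Log2 change of the tested WNT genes and of 6 other pathway lists for CS and IQOS against air. Each point is a gene, filled where the adjusted p is under 0.05, the short bar is the median of the list and the dashed line the median of all tested genes; the genes of the cytoplasm and nucleus lie around 0 in both panels.

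Markers of some other cell types moved between the same groups. Over all tested genes, 5.59% were called higher and 6.12% lower for CS against air. The shares were 1.99% and 0.886% for IQOS against air, and 4.94% and 5.17% for IQOS against CS. The summed relative signal of 14 fibroblast markers was 361 to 383 in air, 303 to 334 in CS and 349 to 378 in IQOS, with 3 called lower and 0 higher for CS against air. That of 11 smooth muscle and pericyte markers was 134 to 146, 84.9 to 117 and 106 to 130, with 4 called lower. Of 12 endothelial markers, 3 were called lower for CS against air (Aplnr, Plvap and Tek), and Aplnr and Plvap were called higher for IQOS against CS, while the sums were 231 to 272 in air, 240 to 257 in CS and 254 to 301 in IQOS. The sum of 12 macrophage markers was 137 to 164 in air, 287 to 379 in CS and 158 to 186 in IQOS, with 6 called higher and 1 lower in CS. Those of 9 neutrophil, 8 B cell and 9 adipocyte markers were 184 to 236, 12.3 to 25.1 and 34.9 to 53.5 in air, 337 to 746, 5.23 to 9.77 and 16.5 to 33.7 in CS and 183 to 431, 9.30 to 19.6 and 31.9 to 51.3 in IQOS. None of the neutrophil markers was called for CS against air, against 3 B cell and 2 adipocyte markers called lower. Before adjustment, 6 of the neutrophil markers had p under 0.05 (limma), beside 5182 of all 16590 tested genes. For IQOS against air 2 of 7 T cell markers were called higher, with sums of 14.1 to 14.5 in air, 12.8 to 16.4 in CS and 16.05 to 21.6 in IQOS. None of 9 alveolar type II, 7 alveolar type I, 6 club, 6 mesothelial and 8 cardiac muscle markers was called for CS against air. Before adjustment, 3, 1, 2, 1 and 0 of them had p under 0.05 (limma). All 8 cardiac muscle changes were below 0 there, and 1 of 8 ciliated markers was called higher. In every one of these lists each measured marker was above background on at least 1 array. The part of these cells in the changes of the WNT genes was not tested.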

How the data were processed

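The authors scanned 9 arrays and deposited spot intensities whose software, per the submitters' processing notes, was Agilent Feature Extraction 10.7.1.1. In the series matrix the authors deposited, 56745 probes carry a linear ratio to the 75th percentile of the array; this scale was found from the values, and its 9 column medians were 0.114, 0.116, 0.121, 0.12, 0.118, 0.117, 0.12, 0.12 and 0.12 (no log, no centring, larger is brighter). The gene build of the promoter table is GRCm38.p6, from RefSeq.

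From the background-subtracted signal, control and outlier spots were left out, spots of a probe were averaged as log2, and each array's 75th percentile (973.3 to 1098 units) was subtracted. Tested probes (37258 of 56605) had values on 2 or more arrays of every group and, in 1 group or more, were above background on all arrays. Of all probes, 32994 (58.3%) matched a RefSeq symbol by accession. Where a gene had several probes, the one of highest mean signal was used, and 16590 genes were tested. Contrasts were fitted to all 9 arrays with limma 3.58.1 (lmFit, eBayes) in R 4.3.3, with Benjamini-Hochberg adjustment over all tested probes. The fit was also run on simulated data of independent arrays without slide or row effects. That run checks the code and does not vouch for the calls above. For a group with no array above background, the fold is a lower bound against the dimmest signal well above background. Per-array precision depends on signal over background, and the number of arrays limits it.

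Genes named with array values were every called gene, the gene of smallest p in each role and comparison, and Wnt5a, Axin2, Lgr5, Lgr6, Sfrp1, Wif1 and Rspo3 where measured; of pathway lists, called genes. The genes and lists were chosen with earlier results of these data known. Alternatives were normexp (offset 50) on median signals, quantile normalization, median centring, 2 filters on dim probes, the series matrix, an intensity trend with robust eBayes, a replicate block, array row, the mean of a gene's probes, only the arrays compared, a threshold of 0.1, and each array left out.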

Additional observations from a re-analysis of the deposited data

How the results depend on the processing

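The number of WNT genes called for CS against air (8) became 2 with no filter on dim probes, 0 with array row as a covariate (11 at an unadjusted p under 0.05) and 5 with only the air and CS arrays, which is also the comparison within their slide; with each array left out it was 1 to 7. For IQOS against air (1) it became 4 with normexp, 2 with the filter on all 9 arrays, 3 with an intensity trend and robust eBayes, 2 with the replicate block and 4 at an adjusted p under 0.1, and 1 to 2 with an array left out. For IQOS against CS (2) it became 5 with normexp, 1 with no filter, 0 with array row (6 at an unadjusted p under 0.05), 1 with only the arrays compared and 6 at 0.1, and 1 to 3 with an array left out. For the 2 counts of 0, no other tool was run. Apart from the threshold of 0.1, the share of all genes called was not taken in these settings. The shifts therefore cannot be read as particular to the WNT genes, and their cause was not tested. With the replicate number as a block, 6, 2 and 3 genes were called for CS against air, IQOS against air and IQOS against CS. For CS against air the block lost the calls of Fzd8 (adjusted p = 0.0580 in limma), Lgr5 (0.0743), Rspo1 (0.0568) and Wnt1 (0.0593). It added Sfrp1 and Wnt10a, but the Wnt10a probe passed the filter only through air, where it is high, so that call is no test. Wnt7b was added in both IQOS comparisons. The labels name no pairing. Deviations of same-numbered arrays correlated from -0.0784 to 0.2, so not every pair was over 0.1, although 7 of 9 arrays correlated best with their own number, a hint from the data only. No arrays held identical values. The median over all probes stayed within 0.1 of the reported one in the settings compared (quantile, median centring, normexp and series matrix).

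Changes of sign were seen in differences that were not called and in the called change of Nkd2 against air. By the value as reported, the largest of them was Axin2 for IQOS against CS (0.40). For CS against air, Notum became -0.0066 with normexp, -0.0074 with quantile normalization, -0.00095 with median centring, -0.0049 with array row and -0.13 with the mean of its probes, and lay between -0.026 and 0.032 with an array left out. With array row, Sfrp2 became -0.46 and Wnt7b -0.26. With an array left out, Axin2 lay between -0.083 and 0.20, Sfrp2 between -0.14 and 0.47 and Wnt7b between -0.078 and 0.31. For IQOS against air, Fzd3 became -0.021 with median centring and -0.049 with array row, and lay between -0.049 and 0.089 with an array left out, while Nkd2 became -0.080 with the mean of its probes. For IQOS against CS, Axin2 became -0.048 and Sfrp1 0.25 with array row, and Wif1 -0.028 with normexp. With an array left out, Sfrp1 lay between -0.21 and 0.023, Wif1 between -0.050 and 0.096 and Wnt1 between -0.10 and 0.26.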
